A study of Mus musculus with 6 samples.

Results

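The vascular endothelial growth factor (VEGF) ligands Vegfa, Vegfb and Vegfc and the VEGF receptors Flt1, Kdr and Flt4 were examined in soleus, a postural calf muscle, of C57Bl/6 mice. The 6 genes were chosen by name as the ligands and receptors of one signalling system, through the gene that the platform annotation gives for each probe. Each had 1 probe, so they made up 6 of the 223 probes and 6 of the 203 named genes on a small array directed at selected genes. All 6 samples form 1 group of control mice, numbered 1 to 6 by the labels, with total RNA taken from cryosections of the muscle. The sample titles also carry the letters HUR and wt, whose meaning the labels do not spell out, and nothing was read from them. The labels give no age, treatment or batch. They also leave unsaid if every array came from its own mouse, and some of the spread between samples may therefore be technical. With a single group there is nothing to compare it with, and the values describe detection, level and spread in control soleus.

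VEGF ligands are secreted dimers that bind receptor tyrosine kinases on endothelial cells. VEGF-A, made in muscle largely by the fibres themselves, acts through KDR (VEGF receptor 2) to drive capillary growth, while FLT1 (VEGF receptor 1) binds VEGF-A and VEGF-B tightly, signals weakly and can act as a decoy. VEGF-C and VEGF-D act mainly through FLT4 (VEGF receptor 3), which in the adult is best known from lymphatic vessels.

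All 6 genes were found in the promoter table of RefSeq for the mouse assembly GRCm38.p6. The 250 bases before the annotated start are shown for Vegfa, the ligand that both Flt1 and Kdr bind, and for the 3 receptors. They run 5′ to 3′ on the strand of the gene, and capitals mark matches on either strand to the GC box GGGCGG, the TATA box TATAAA or the hypoxia response core ACGTG. Vegfa has 2 starts in the table, and the outermost is shown. They lie on the minus strand at chr17:46032378-46032627 for Vegfa, chr5:147726012-147726261 for Flt1 and chr5:75978456-75978705 for Kdr, and on the plus strand at chr11:49609429-49609678 for Flt4.
Vegfa: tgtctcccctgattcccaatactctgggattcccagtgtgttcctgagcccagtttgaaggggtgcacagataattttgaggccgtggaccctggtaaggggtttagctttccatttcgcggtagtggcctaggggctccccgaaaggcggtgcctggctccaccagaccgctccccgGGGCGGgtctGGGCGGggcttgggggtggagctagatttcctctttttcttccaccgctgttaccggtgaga
Flt1: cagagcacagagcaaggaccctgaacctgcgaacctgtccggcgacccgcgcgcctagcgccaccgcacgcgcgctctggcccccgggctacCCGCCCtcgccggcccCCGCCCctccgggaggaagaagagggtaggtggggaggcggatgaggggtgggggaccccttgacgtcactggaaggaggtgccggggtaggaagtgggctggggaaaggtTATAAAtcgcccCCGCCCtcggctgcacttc
Kdr: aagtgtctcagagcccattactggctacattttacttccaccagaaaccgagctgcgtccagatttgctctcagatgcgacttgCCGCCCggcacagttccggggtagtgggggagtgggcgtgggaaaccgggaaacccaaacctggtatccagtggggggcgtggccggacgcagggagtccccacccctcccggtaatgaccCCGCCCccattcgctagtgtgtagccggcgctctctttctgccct
Flt4: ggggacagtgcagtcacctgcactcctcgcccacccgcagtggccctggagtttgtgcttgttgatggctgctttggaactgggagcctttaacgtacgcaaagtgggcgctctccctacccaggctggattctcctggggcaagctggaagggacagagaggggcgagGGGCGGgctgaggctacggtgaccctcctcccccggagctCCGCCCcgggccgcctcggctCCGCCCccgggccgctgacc

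The GC box occurred 2 times for Vegfa, 3 times for Flt1, 2 times for Kdr and 3 times for Flt4, and 32.7% of all 32851 promoters in the table held it in a window of this length. Flt1 alone of the 6 genes held the TATA box, 31 bases before the start on the strand of the gene, a motif found in 12.4% of all promoters. The hypoxia response core was in none of the 4 windows shown, and in 16.6% of all promoters. The window before the other Vegfa start, which is not shown, held it 1 time, on the strand opposite to the gene. The windows of Vegfb and Vegfc did not hold it. GC content was 59.2% for Vegfa, 70.4% for Flt1, 61.6% for Kdr and 68.4% for Flt4, against a median of 52.4% over all promoters. The arrays measured transcripts and not promoters, and a match is a description of the letters.

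The deposited intensities were on a linear scale, and array medians differed 4.15-fold, so each array was centred. For each array a noise bound was set at the size of its most negative intensity, and smaller values have no reliable size. Control 2 had the fewest of the 223 probes above its bound, 109, and control 1 had 143, while controls 3 to 6 had 153 to 166. The slow fibre genes Myh7 and Mb and the fast myosin genes Myh1, Myh2 and Myh4 lay above the bound on all 6 arrays, as did the endothelial genes Pecam1 and Cdh5. Of 17 endothelial markers 6 were on the array, and of these Nos3 was above the bound on no array. None of the 5 lymphatic, 8 macrophage and leucocyte, 4 blood or 5 nerve and Schwann cell markers listed was on the array, so the presence of those cells was not tested. In whole muscle, fewer cells of a type and less RNA per cell cannot be told apart.

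Of the 6 genes, 4 were detected in every sample, whereas Vegfc and Flt4 were detected only in some. Vegfa, Vegfb, Flt1 and Kdr lay above the noise bound on all 6 arrays, and Vegfc and Flt4 on 4 arrays each. The count of 4 of 6 genes stood beside 106 of all 223 probes, or 47.5%. Vegfb was furthest above background, at 12.3, 5.05, 14.8, 11.5, 12.4 and 13.4 times the noise bound in controls 1 to 6. Vegfa had 4.71, 1.60, 4.67, 4.28, 7 and 5.28 times the bound. Control 2, the array with the fewest probes above its bound, gave the lowest multiple for both.

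Vegfc did not exceed 2.04 times the bound on any array. Its multiples were 0.765, -0.097, 1.18, 1.29, 2.04 and 1.78 in controls 1 to 6, so it was under the bound in control 1 and below 0 in control 2. Among the receptors, Kdr stood at 5.82, 3.34, 7.79, 7.66, 9.83 and 9.33 times the bound. Flt1 had 1.88, 1.13, 6.09, 4.49, 8.70 and 7.33, and was close to the bound in controls 1 and 2. Flt4 had 0.441, 0.516, 1.76, 1.01, 6.39 and 4.39, so it was under the bound in the same controls 1 and 2 and furthest above it in controls 5 and 6. With 2 noise bounds required in place of 1, Vegfb and Kdr were the 2 genes detected in all 6 samples, beside 77 of 223 probes.

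**Figure D1:**
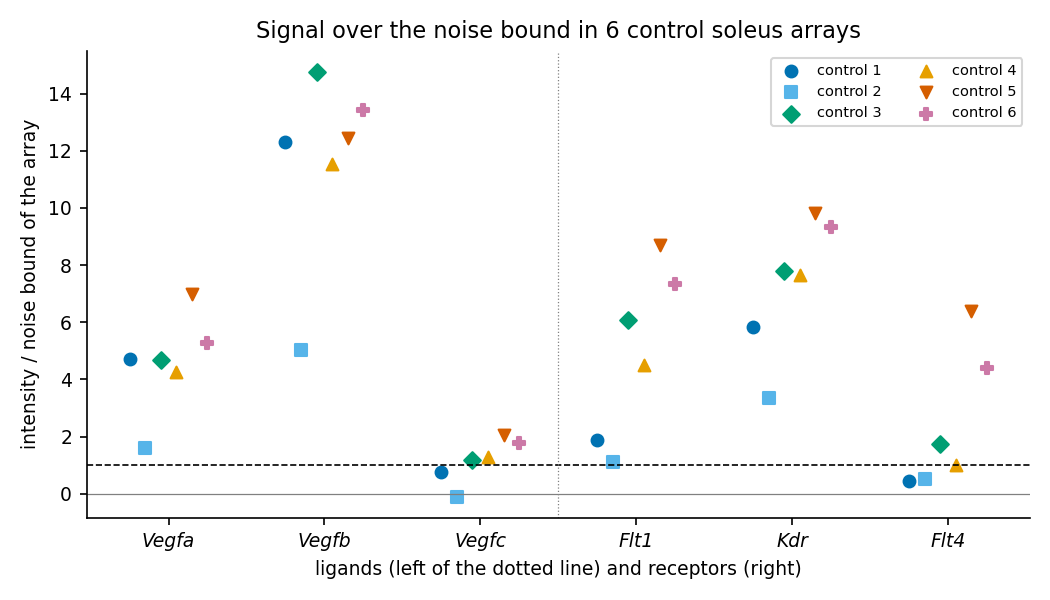
Intensity of each VEGF ligand and receptor as a multiple of the noise bound of its array (vertical axis, linear, no unit), 1 point per control sample, with the dashed line at 1. Vegfa, Vegfb, Flt1 and Kdr lie above the line in all 6 samples, Vegfc and Flt4 in 4, and control 2 gives the lowest point for each gene except Flt4.

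Levels are given as log2 intensity relative to the median of the 152 genes and unnamed probes that exceeded 0 in every sample. Such a level carries the affinity of its probe, so it is compared between samples and not between genes. Vegfc, below 0 in control 2, was left out of this set, and 5 of the 6 genes had levels in all samples.

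Vegfa and Vegfb had SDs of 0.28 and 0.34 over the samples. Vegfa had levels of -0.009, -0.53, -0.65, -0.67, -0.35 and -0.76 in controls 1 to 6, a mean of -0.49 ± 0.28 (SD, n = 6). Control 1 was the highest, and the highest sample was 1.68-fold above the lowest. Without control 1 the SD of Vegfa was 0.16. Vegfb had levels of 1.38, 1.13, 1.01, 0.76, 0.48 and 0.59, a mean of 0.89 ± 0.34 (SD, n = 6), with control 1 again the highest, control 5 the lowest and 1.86-fold between them. Vegfc could be given a level over 5 samples once control 2 was set aside, and its SD there was 0.19 with a fold of 1.34 between the highest and lowest sample, although control 1 was under the noise bound.

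The SDs of the receptors ran from 0.18 for Kdr to 1.08 for Flt4. Kdr, the main signalling receptor of blood vessel endothelium, had levels of 0.30, 0.53, 0.09, 0.17, 0.14 and 0.07 in controls 1 to 6, a mean of 0.22 ± 0.18 (SD, n = 6), and its highest sample was 1.38-fold above its lowest. It was highest in control 2, the array with the fewest probes above its bound, then in control 1, the next array by that count, and without control 2 its SD was 0.10. Flt1, the receptor of VEGF-A and VEGF-B that can act as a decoy, had levels of -1.33, -1.03, -0.26, -0.60, -0.04 and -0.28, a mean of -0.59 ± 0.50 (SD, n = 6) and a fold of 2.45 between control 5 and control 1. Its lowest levels were in controls 1 and 2, where Kdr was highest.

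Flt4, the receptor of VEGF-C and VEGF-D, had the largest SD of the 5 genes as deposited. Its levels were -3.42, -2.16, -2.05, -2.75, -0.48 and -1.02 in controls 1 to 6, a mean of -1.98 ± 1.08 (SD, n = 6). Controls 5 and 6 were the highest, and the values in controls 1 and 2 lay under the noise bound and have no reliable size. Over the 4 samples above the bound, control 5 was still 4.82-fold above control 4. Controls 5 and 6 were also the arrays with the most probes above their bound, 163 and 166, and the part of this difference in the spread of Flt4 was not tested.

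**Figure D2:**
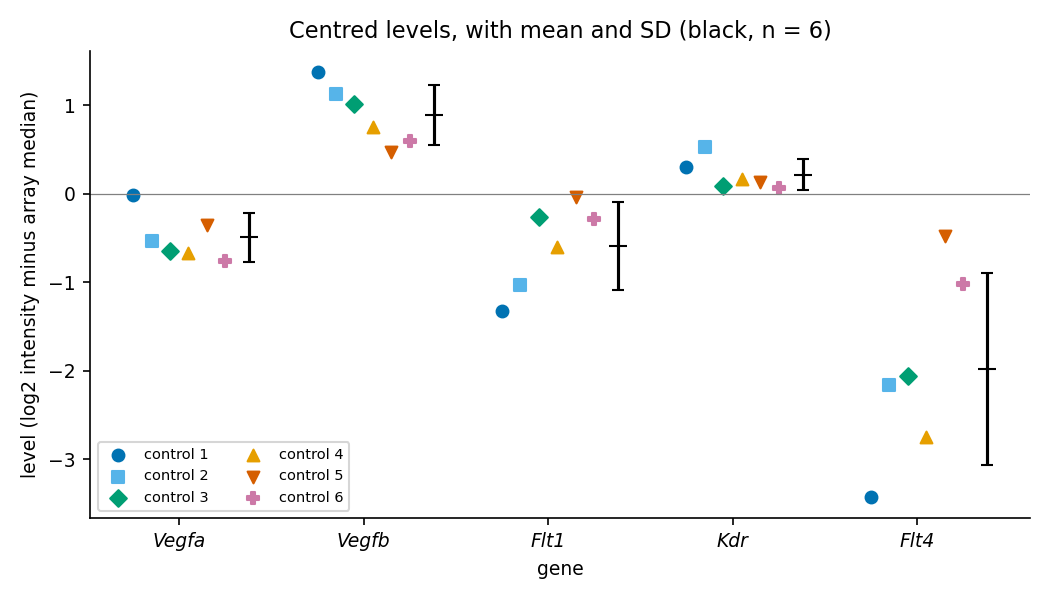
Level of the 5 measured VEGF genes (log2 intensity minus the array median, vertical axis) in each of the 6 control samples, with the mean and SD in black. Kdr stays within 1.38-fold, while Flt1 is lowest in controls 1 and 2 and Flt4 is highest in control 5, at -0.48, with its values in controls 1 and 2 under the noise bound.

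No VEGF gene varied more, or less, than genes of like intensity beyond the threshold of the test. The SD of each gene was set against the SD that limma's intensity trend predicts at its level, with Benjamini-Hochberg adjustment over all 152. The observed and predicted SDs were 0.28 and 0.45 for Vegfa, 0.34 and 0.46 for Vegfb, 0.50 and 0.45 for Flt1, 0.18 and 0.45 for Kdr, and 1.08 and 0.82 for Flt4. For excess spread limma called 0 of the 5 genes, beside 2 of 152 (1.32%), Lama3 and Agtr2, with 0 of the 5 and 9 of the 152 at an unadjusted p under 0.05. Flt4 came nearest, with an unadjusted p of 0.254 and an adjusted p of 0.911 in limma.

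For small spread limma also called 0 of the 5, beside 0 of 152 (0%). At an unadjusted p under 0.05 it found 1 of the 5, Kdr, and 9 of the 152 (5.92%). Kdr had the fifth smallest SD of the 152, with an unadjusted p of 0.0295 and an adjusted p of 0.628 in limma. Its unadjusted limma p was 0.116 without control 1, 0.0548 without control 4 and 0.0634 without control 5, and ran from 0.0106 to 0.223 over all alternatives. By rank of SD from the smallest, Vegfa was at 17, Vegfb at 30, Flt1 at 68 and Flt4 at 133. The median SD was 0.34 over the 5 VEGF genes and 0.54 over all 152.

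**Figure D3:**
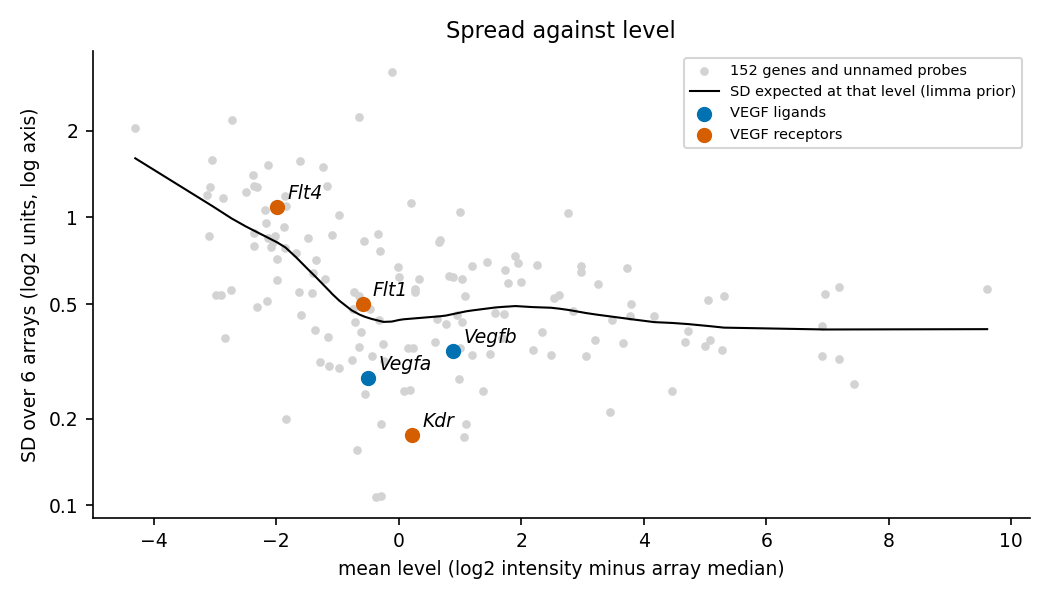
SD over the 6 samples (log2 units, log axis) against mean level (log2 intensity minus array median) for 152 genes and unnamed probes (grey), with the SD that limma predicts at each level as a line. Vegfa, Vegfb and Kdr lie below the line, and Flt1 and Flt4 above it.

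Ratios between 2 genes of the same array do not change when a whole array is brighter or dimmer, so they show unequal change between samples without any centring. Their absolute size carries the affinities of both probes and is not read. The ratios that paired Kdr with a ligand had SDs of 0.27 each. The log2 ratio of Kdr over Vegfa was 0.31, 1.06, 0.74, 0.84, 0.49 and 0.82 in controls 1 to 6, with an SD of 0.27 (n = 6) and a fold of 1.69 between control 2 and control 1. That of Kdr over Vegfb had an SD of 0.27 as well and a fold of 1.67 between control 5 and control 1.

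The ratio of the ligands to each other had an SD close to these. Vegfb over Vegfa had log2 ratios of 1.39, 1.66, 1.66, 1.43, 0.83 and 1.35, an SD of 0.30 (n = 6) and a fold of 1.78 between control 3 and control 5. Control 5 stood apart as the lowest, and without it the SD was 0.15, below those of Kdr over Vegfb (0.24) and Kdr over Vegfa (0.28) without the same sample. The order of these 3 SDs therefore turned on control 5, and with 1 noise bound added they were 0.24 for Vegfb over Vegfa, 0.25 for Kdr over Vegfb and 0.19 for Kdr over Vegfa. Vegfc could be set against the other ligands only in controls 3 to 6, where it was above the bound. Over those 4 samples the ratio of Vegfa over Vegfc stayed within a fold of 1.33 and that of Vegfb over Vegfc within 2.05, while Flt4 over its ligand Vegfc ranged over 3.98-fold.

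The ratios of the receptors to each other varied about as those of all gene pairs did. Their median SD was 0.72 over 3 ratios as deposited, against 0.80 over all 11476 pairs of measured genes. Flt1 over Kdr had log2 ratios of -1.63, -1.56, -0.35, -0.77, -0.18 and -0.35 in controls 1 to 6, an SD of 0.64 (n = 6) and a fold of 2.74 between control 5 and control 1. Controls 1 and 2 lay below each of the other samples, and they were the arrays with the fewest probes above their bound. Flt4 over Kdr had log2 ratios of -2.15, -2.92, -0.62 and -1.09 in controls 3 to 6, where Flt4 was above the bound, an SD of 1.04 and a 4.92-fold range between control 5 and control 4. That restriction was chosen after the data were seen, and over all 6 samples the SD was 1.17 as deposited and 0.87 with Flt4 in controls 1 and 2 raised to the noise bound. Flt4 over Flt1 had an SD of 0.82 and a 3.27-fold range between control 5 and control 4 in the same 4 samples, and an SD of 0.72 over all 6.

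Set against the ligands, Flt1 and Flt4 gave wider ratios than Kdr did. Flt1 over Vegfa had an SD of 0.70, and Flt1 over Vegfb an SD of 0.82. The SD of Flt1 over Vegfa was 0.39 without control 1. Flt4 over Vegfa had an SD of 1.22 and Flt4 over Vegfb an SD of 1.38, with control 5 the highest in both. In controls 3 to 6 those SDs were 0.94 and 1.20, with ranges of 3.86-fold and 5.86-fold between control 5 and control 4. Raised to the noise bound, the same SDs over 6 samples were 0.91 and 1.08. With 1 noise bound added to both intensities, which damps ratios of dim genes, the SDs of the 4 ratios of Flt4 ran from 0.45 for Flt4 over Flt1 to 0.86 for Flt4 over Vegfb. The median SD was 0.71 over the 10 ratios of VEGF genes and 0.80 over all 11476 pairs of measured genes, with quartiles of 0.52 and 1.20.

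**Figure D4:**
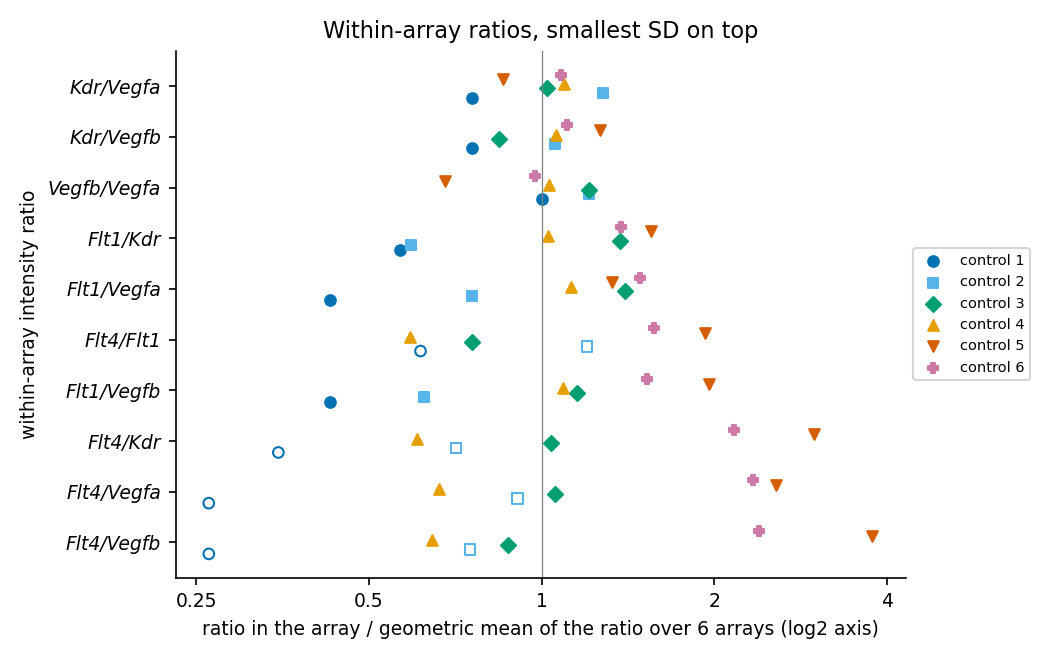
Within-array ratios of the VEGF genes in each of the 6 control samples, divided by the geometric mean of the ratio over the samples (horizontal axis, log2 scale), ordered by SD. Kdr over Vegfa and Kdr over Vegfb stay within 1.69-fold, and the 3 ratios of Flt4 over Kdr, Vegfa and Vegfb have the largest SDs, with control 5 highest. Open symbols mark Flt4 under the noise bound (controls 1 and 2), where the ratio has no reliable size.

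On centred levels, with no value raised to the noise bound, r over the 6 samples was positive for Flt1 with Flt4. It was negative for Vegfb with each of them, and no pair passed the test after adjustment. Vegfb and Flt1 had a Pearson's r of -0.868 (exact permutation p = 0.0306, adjusted p = 0.258) and a Spearman's rho of -0.829 (exact p = 0.0583, adjusted p = 0.332). Vegfb and Flt4 had r = -0.838 (exact p = 0.0431, adjusted p = 0.283) and the same rho and p. Flt1 and Flt4 had r = 0.831 (exact p = 0.050, adjusted p = 0.294) and rho = 0.886 (exact p = 0.0333, adjusted p = 0.288). Adjustment covered all 11476 pairs of measured genes. When the 2 samples lying farthest from the first gene's median were dropped, r was -0.578 for Vegfb and Flt1 and -0.451 for Vegfb and Flt4 (both without controls 1 and 5), and 0.893 for Flt1 and Flt4 (without controls 1 and 2). With values under the noise bound raised to it, which changes Flt4 in controls 1 and 2, r was 0.447 for Flt1 and Flt4 (exact p = 0.369) and -0.515 for Vegfb and Flt4 (exact p = 0.265). On intensities that were not centred, and so carry the brightness of the array, r was 0.596 for Vegfb with Flt1 and 0.0029 for Vegfb with Flt4. The cause of this change was not tested.

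Of the 10 pairs of VEGF genes, 0 passed the exact permutation test after adjustment, beside 0 of 11476 (0%). The smallest p of this test is 0.00139. A call after adjustment needs many pairs at that p together, so these 0 counts say little. At an unadjusted p under 0.05 there were 2 of 10 by Pearson's r and 1 of 10 by Spearman's rho, beside 1912 of 11476 (16.7%) and 1330 of 11476. Flt1 and Kdr, the receptors of VEGF-A, had r = -0.753 (exact p = 0.0736, adjusted p = 0.333) and rho = -0.714 (exact p = 0.136, adjusted p = 0.459), and r became -0.369 once controls 1 and 2 were dropped and 0.768 if arrays were not centred. Vegfa and Vegfb had r = 0.531 (exact p = 0.293, adjusted p = 0.577) and rho = 0.429 (exact p = 0.419, adjusted p = 0.741). That value turned on control 1, and r was -0.181 without it. The other 5 pairs had r from -0.571 to 0.614, with exact permutation p from 0.189 to 0.481 and adjusted p from 0.479 to 0.724. The median r was -0.40 over the 10 pairs and 0.06 over all pairs.

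Since Flt1, Kdr and Flt4 are made mainly by endothelial cells, their levels were set beside the mean of the 5 other endothelial markers measured, Pecam1, Cdh5, Tek, Ace and Vcam1. This mean was -1.0, -0.24, -0.17, -0.46, -0.12 and -0.24 in controls 1 to 6, lowest in control 1. On centred levels, with no value raised to the noise bound, r with the mean was positive for Flt1 and Flt4 and negative for Kdr. Flt1 had r = 0.798 with the mean (exact permutation p = 0.0347, adjusted p = 0.342 over 152 genes) and rho = 0.943 (exact p = 0.0167, adjusted p = 0.211). Flt4 had r = 0.809 (exact p = 0.0292, adjusted p = 0.341) and the same rho and p. Kdr had r = -0.246 (exact p = 0.600, adjusted p = 0.751) and rho = -0.600 (exact p = 0.242, adjusted p = 0.432). With values raised to the noise bound, r was 0.067 for Flt1 (exact p = 0.903), 0.524 for Flt4 (exact p = 0.288) and 0.589 for Kdr (exact p = 0.228). That step also changes the mean, through markers such as Vcam1.

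No VEGF gene passed after adjustment, with 0 of 5 beside 0 of 152 (0%) in the exact permutation test. A call here needs several genes together at the smallest p, 0.00139, so these counts say little as well. At an unadjusted p under 0.05 there were 2 of 5, Flt1 and Flt4, beside 20 of 152 (13.2%). When controls 1 and 4, which lay farthest from the median of this mean, were dropped, r was 0.715 for Flt1, 0.509 for Flt4 and -0.433 for Kdr. Without control 1 alone, r was 0.492 for Flt1 (exact permutation p = 0.375) and 0.746 for Flt4 (exact p = 0.108). For Kdr it was -0.090 (exact p = 0.875). The ligands had r = -0.711 for Vegfa (exact p = 0.146, adjusted p = 0.383) and -0.679 for Vegfb (exact p = 0.115, adjusted p = 0.365), with rho of -0.143 (exact p = 0.803, adjusted p = 0.891) and -0.714 (exact p = 0.136, adjusted p = 0.357). Without controls 1 and 4, r was 0.696 for Vegfa and -0.457 for Vegfb. Without centring r was positive for Vegfa (0.747), Vegfb (0.699) and Kdr (0.870). Much of the spread of the mean came from Vcam1, an adhesion molecule of activated endothelium that exceeded the bound on 3 arrays and had a level of -5.33 in control 1.

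**Figure D5:**
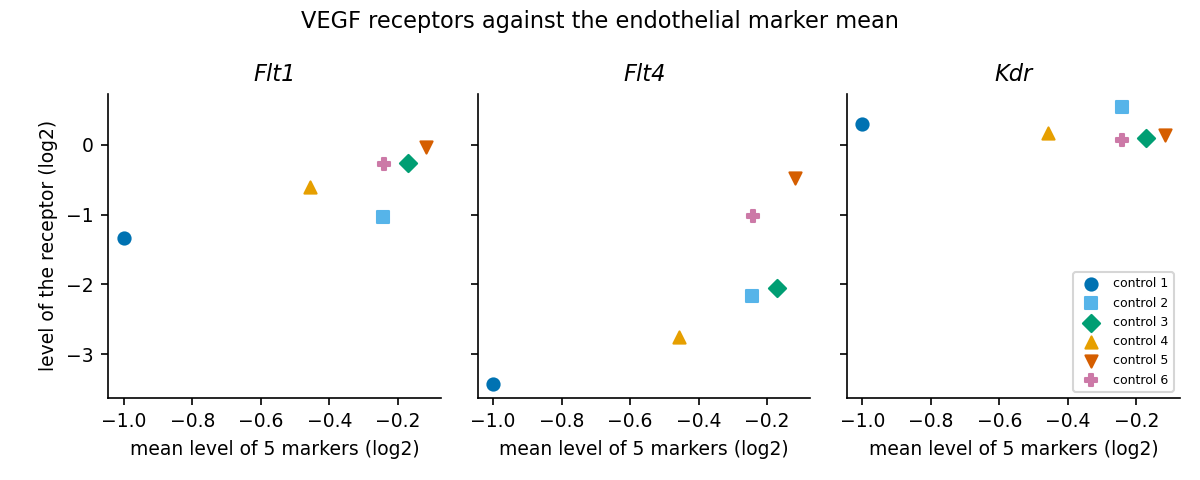
Level of Flt1, Flt4 and Kdr (log2, vertical axis, shared scale) against the mean level of 5 other endothelial markers (log2, horizontal axis) in the 6 control samples. Control 1 is lowest on both axes for Flt1, Flt4 lies under the noise bound in controls 1 and 2, and Kdr stays between 0.07 and 0.53.

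Among the other genes of the pathway, 26 of 48 listed were on the array, 18 were measured, 7 lay above the noise bound on all 6 arrays and 7 on none. Of the 18, limma called 0 for excess spread and 0 for small spread, with 2 each at an unadjusted p under 0.05. Their median SD was 0.74. Epor, the erythropoietin receptor, had the largest SD, 2.18, and 0.19 without control 2. Tgfb1, a growth factor of matrix and vessel wall, had the smallest, 0.11. The remaining VEGF family ligands on the array, named after their values were seen, were Vegfd and Pgf. Vegfd, the other ligand of FLT4, was above the bound in all 6 samples, with levels of -0.67, -0.02, 0.97, 1.44, 1.21 and 1.13 in controls 1 to 6. Its SD was 0.83, with 4.31-fold between control 4 and control 1. It was lowest in controls 1 and 2, as Flt1 was. Pgf, the placental growth factor that binds FLT1, was above the bound in none, with intensities between -0.60 and 0.06 times the bound.

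The genes whose pattern over the 6 samples was most like that of each VEGF gene were sought among the named genes above the noise bound on all arrays. With Pearson's r as the measure, Vegfa was nearest to the matrix glycoprotein gene Fn1 (0.962), the transcription factor gene Jund (0.920) and Thbs1 (0.848), which encodes a matrix protein that restrains angiogenesis. Vegfb was nearest to the protease gene Ctsh (0.978), the adaptor gene Ywhaz (0.967) and the kinase gene Dmpk (0.962). Flt1 was nearest to Efnb2 (0.964), the ephrin of arterial endothelium, then Ang2 (0.941) and the transcription factor gene Fosl2 (0.892). Ang2 is a separate gene from the angiopoietin gene Angpt2, which was measured apart. Kdr was nearest to Top1 (0.949), a DNA topoisomerase gene, the enolase gene Eno2 (0.943) and the fatty acid carrier gene Fabp4 (0.927). Flt4 was nearest to Fosl2 (0.987), the growth factor gene Igf1 (0.921) and the endothelial adhesion gene Pecam1 (0.904). These are the highest of 99 values for each gene, or 100 for Flt4, over 6 arrays that share their brightness and background, and no test was made of them.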

How the data were processed

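The submitters deposited 1 intensity per probe for each of 6 arrays, on a linear scale with values below 0. How the arrays were scanned, background-corrected or scaled is not given in the sources used here. Per the labels, 3 µg of total RNA went on each array. Of the 223 probes, the platform annotation gave 1 gene for 205 and none for 18, and 204 gene identifiers were found in the GRCm38.p6 gene table, with 0 symbols changed.

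Intensities were brought to log2, probes above 0 on all 6 arrays were kept, probes of a gene were averaged and each array was centred on its median over the resulting 152. Spread was tested in R 4.3.3 (limma 3.58.1, with statmod 1.5.0), by a one-sided F test of each variance against a robust prior with intensity trend (6.12 prior degrees of freedom), in each direction. Correlations had two-sided exact permutation tests, with all 720 pairings enumerated, for which the smallest p is 0.00139. Benjamini-Hochberg adjustment at 0.05 covered all genes or all pairs. Both tests were also tried on simulated data, with the outcome not reported here. The p-values of the F test set the variance of a gene over these samples against its prior. Those of the permutation test address how 2 quantities pair over these samples. The number of arrays limits the precision of both.

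The VEGF genes, the gene lists and the tests were chosen with earlier results of these data known. All 6 genes are named. Other genes named are the 3 nearest in pattern to each, the pathway genes with the largest and smallest SD and any past a spread test. Vegfd, Pgf, the marker genes and Egfr were named outside that rule, with their values seen. Ratios of Flt4 over only the arrays above the bound were added after the data were seen. Alternatives covered scaling, noise bound, filter, prior, correlation measure and each array left out. Vegfc was left out of the levels because 1 value was below 0.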

Additional observations from a re-analysis of the deposited data

Results flagged for a closer look

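The log2 ratio of Vegfb over Vegfa was 0.83 in control 5, while the other 5 samples lay between 1.35 and 1.66. Its gap to the nearest sample, as a share of the whole range, was just past the 95% critical value of Dixon's test for 6 samples. It was the 1 such value among 15 checked, the levels of 5 VEGF genes and their 10 ratios, and about 1 in 20 is flagged by chance alone. Vegfa and Vegfb were above the noise bound in control 5, at 7 and 12.4 times the bound.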

How the results depend on the processing

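Under each alternative run, including each sample left out, 0 of the 5 VEGF genes passed a spread test. After adjustment, 0 of their pairs passed the correlation test and 0 genes passed against the endothelial mean. With a sample left out the permutation test has 120 pairings and a smallest p of 0.00833. Here too a call after adjustment needs many pairs or genes at the smallest p together, so these 0 counts say little. The genes with excess spread, none of them a VEGF gene, numbered 2 of 152 as reported. They numbered 0 after quantile or cyclic loess normalization, with only probes above the noise bound, without robust estimation and without the intensity trend, 1 with values raised to the bound, and 0 to 2 with a replicate left out. The number with small spread was 1 after quantile normalization, which fixes the brightest probe by construction, and 1 after cyclic loess (Egfr). With 2 noise bounds, 2 VEGF genes in place of 4 were detected on all arrays, beside 77 of 223 probes in place of 106.

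Without centring, where array brightness is shared by all genes, r turned positive for Vegfa with Flt1 (0.719) and Flt4 (0.237), Vegfb with Flt1 (0.596) and Flt4 (0.0029), Kdr with Flt1 (0.768) and Flt4 (0.311), and for the endothelial mean with Vegfa (0.747), Vegfb (0.699) and Kdr (0.870). With values raised to the bound it was 0.013 for Kdr with Flt4, 0.447 for Flt1 with Flt4 and -0.515 for Vegfb with Flt4, and with the endothelial mean 0.589 for Kdr, 0.067 for Flt1, 0.524 for Flt4, -0.052 for Vegfb and -0.278 for Vegfa. With a replicate left out, r ran from -0.181 to 0.875 for Vegfa with Vegfb, -0.870 to 0.155 for Vegfa with Flt1, -0.789 to 0.446 for Vegfa with Flt4 and -0.902 to 0.535 for Vegfa with the endothelial mean, each turning without control 1. The causes were not tested. With all samples kept, 8 of 49 alternative SDs moved by over 1.5 times: those of Vegfa, Vegfb, Flt1 and Kdr without centring (0.71 to 1.00), and those of the 4 ratios of Flt4 with 1 noise bound added (0.45 to 0.86). Vegfc and Flt4 were limited by signal over background. No paired analysis was possible because there is only 1 group.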
